A study of Drosophila melanogaster and Drosophila simulans and Drosophila yakuba with 8 samples.

Results

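The transcript profile of wildtype Drosophila melanogaster testis was described from the 2 libraries of 8 in the series that carry this label. Both came from dissected testes of Oregon-R flies, a standard laboratory wildtype strain, aged 1 to 7 days as adults and raised on cornmeal food. RNA was extracted with Trizol, chloroform and a Qiagen column and made into single-end Illumina messenger RNA libraries. The labels name no transgene or treatment for these flies and do not say whether the 2 samples came from separate flies, so the spread between them may be technical. With a single group there is no contrast, and levels are given as a description without a test.

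The fly testis is a coiled tube in which germline stem cells at the tip produce spermatogonia, which divide, become spermatocytes, pass through meiosis and elongate into sperm. Spermatocytes transcribe a large set of genes under testis-specific forms of general regulators, and many of the messages are stored and translated only after meiosis. Somatic hub cells hold the stem cells in place, cyst cells enclose each germ cell clone, and a muscle sheath surrounds the organ. Many general cellular proteins have additional copies used in the male germline of this species.

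Reads on genes numbered 24429722 in replicate 1 and 22582003 in replicate 2. Levels are in RPKM, reads scaled by listed exon length and by library size in mapped reads, so that genes of different length can be compared. At these depths 3 reads on a 1 kb gene gave 0.120 and 0.129 RPKM, which is about the upper limit that a count of 0 allows, covering counting error only. Of 15178 listed genes, 10064 (66.3%) had a mean of at least 1 RPKM, 5727 (37.7%) of at least 10 RPKM and 1409 (9.28%) of at least 100 RPKM. The 1409 genes at 100 RPKM or more held 63.7% of gene reads, and 68 genes stood at 1000 RPKM or more. The 100 genes with most reads held 22.4% of gene reads in replicate 1 and 22.3% in replicate 2. It took 575 and 584 genes to reach 50% of the reads and 3700 and 3755 genes to reach 90%. No read was listed in either library for 1573 genes.

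The libraries gave similar levels for most genes. Across the 10064 genes with at least 1 RPKM, log2 RPKM correlated at 0.99 (Pearson, across genes, which are not independent replicates), and the median size of the difference between libraries was 0.09 on the log2 scale. A chi-square statistic of 4.96 per degree of freedom showed more difference than counting noise, so the counts are not those of 1 library deposited again. This does not show that the samples came from separate flies. Of these genes, 72 (0.715%) differed at least 2-fold, and among the 7377 genes at 5 RPKM or more 4 did. In bulk tissue, fewer cells of a type and less RNA per cell cannot be told apart, which holds for every level below.

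The most abundant transcript for its length was CG18628 (FBgn0036091, arm 3L), a gene known only by its annotation number, with a listed length of 316 bases. It measured 16858 RPKM in replicate 1 and 20985.5 RPKM in replicate 2. Next came FBgn0051210, an identifier without a current symbol, at 3884 and 3802 RPKM, and CG12699 on arm 2R at 3809 and 3777 RPKM. CG18628 thus stood far above the next genes in both libraries, while ranks 2 to 30 spanned mean levels from 3843 down to 1711 RPKM.

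**Figure D1:**
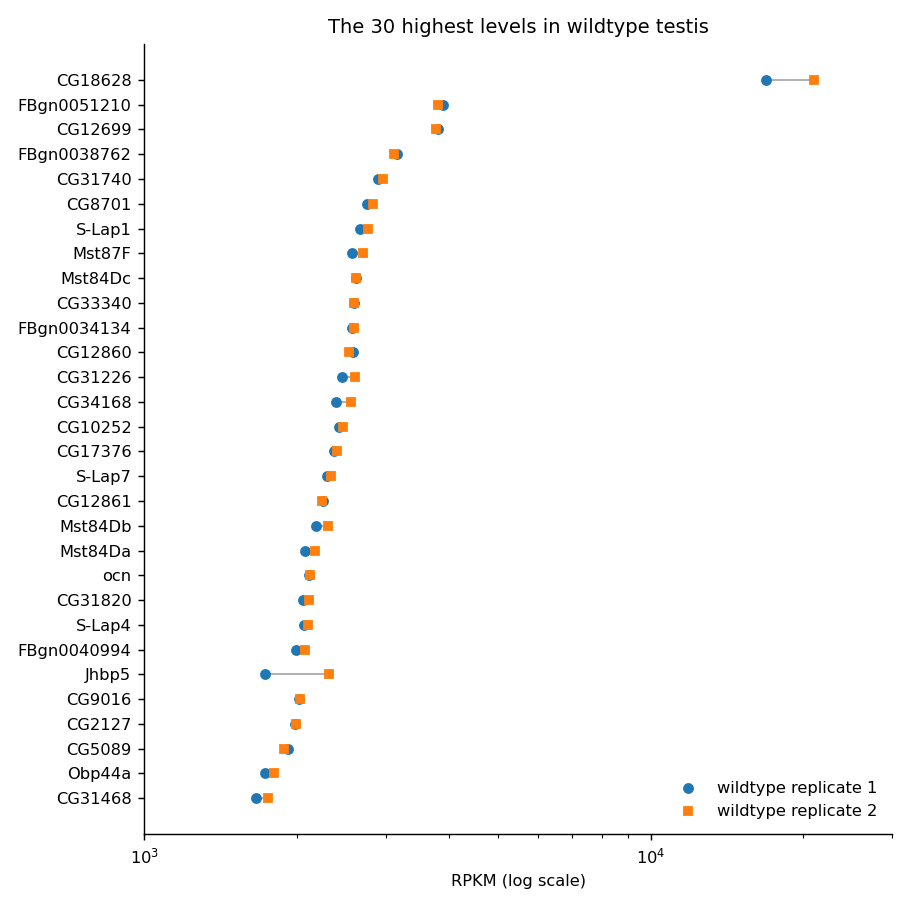
RPKM on a log scale (horizontal axis) of the 30 genes with the highest mean level (vertical axis), with a circle for wildtype replicate 1 and a square for replicate 2. CG18628 stands apart at 16858 and 20985.5 RPKM, and the largest gap between libraries among the other genes is that of Jhbp5 at 1729 and 2321 RPKM.

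Genes with a known place in the sperm tail made up much of the named part of the 30 highest. The sperm-tail proteins with cysteine-glycine-proline repeats gave Mst87F (2567 and 2708 RPKM), Mst84Dc (2616 and 2615), Mst84Db (2188 and 2303) and Mst84Da (2078 and 2173). The leucyl aminopeptidase-like proteins of sperm gave S-Lap1 (2672 and 2765 RPKM), S-Lap7 (2295 and 2337) and S-Lap4 (2064 and 2106). The testis gene ocnus (ocn) measured 2113 and 2127 RPKM. In 7 of these 8 genes, Mst84Dc excepted, replicate 2 was slightly higher.

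Of the 30 highest genes 16 carried only an annotation number, so that no role is given here. After CG18628 and CG12699 the highest of them were CG31740 (2892 and 2967 RPKM), CG8701 (2757 and 2827) and CG33340 (2591 and 2593). Then followed CG12860, CG31226, CG34168, CG10252, CG17376, CG12861, CG31820, CG9016, CG2127, CG5089 and CG31468, with mean levels from 2563 down to 1711 RPKM. The remaining named members were Jhbp5, of the juvenile hormone binding family, and Obp44a, of the odorant-binding family, at 1734 and 1801 RPKM. With CG31740, CG33340 and Mst84Da, they are the 5 of 26 members with a symbol (19.2%) that overlap another listed gene in the reference annotation. Of all listed genes with a symbol, 24.4% do. The counting of reads in an overlap is not given in the sources, so the values of these 5 are uncertain. No current symbol was found for 4 of the 30, FBgn0051210, FBgn0038762 (3160.4 and 3115 RPKM), FBgn0034134 (2577 and 2598) and FBgn0040994 (1994 and 2078).

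The highest genes were short, in a ranking by RPKM, which itself divides reads by listed length. Their median listed length was 673 bases for the 30 highest and 983.5 bases for the 100 highest, against 1473 bases for all listed genes. Of 88 protein-coding genes among the 100 highest, 23 (26.1%) had no annotated intron, against 15.5% of 11960 protein-coding genes listed. Neighbouring genes in the reference gene order formed 8 runs that held 19 of the 100 highest. The longest run was the cluster of Mst84Dd, Mst84Dc, Mst84Db and Mst84Da on arm 3R, with mean levels from 1109 to 2616 RPKM. CG18449, CG2127 and CG8701 on arm 2R formed a run of 3 with mean levels from 1374 to 2792 RPKM. The other runs were pairs of neighbours, such as CG12861 with CG12860, CG17376 with CG17377, S-Lap1 with S-Lap2, and ocn with janB.

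Ranking by reads rather than by level put longer genes first. FBgn0038762, with a listed length of 3933 bases, held the most reads in both libraries (311966 and 284863). Next by the sum of both libraries were CG18628 (133699 and 154183 reads), S-Lap1 (142330 and 136421) and FBgn0034134 (138196 and 129060). In replicate 1 alone, S-Lap1 and FBgn0034134 had more reads than CG18628. The maternal and male germline gene exuperantia (exu), which acts in RNA localization in the oocyte, ranked 66 by level but was among the 15 with most reads, at 89878 and 77968. CG9130 and CG9133, which overlap each other in the reference annotation, held 93305 and 85124 reads and 96141 and 87899 reads. Both lie on the plus strand of arm 3L, and the counting of reads in an overlap is not given in the sources, so their values are uncertain. The same holds for exu, which overlaps another listed gene.

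Genes with known roles are given in the order of germ cell stages, from stem cell to sperm, and the list medians did not follow this order throughout. For the counts in this and the following lists, the shares of all listed genes were 66.3% at 1 RPKM or more, 37.7% at 10 and 9.28% at 100. Several members named below overlap another listed gene in the reference annotation, such as bam, nanos, aub, piwi, twe, janA, janB, Cyt-c-d and arm. Their values are uncertain, since the counting of reads in an overlap is not given in the sources. Of 13 stem cell and spermatogonial genes measured, 12 stood at 1 RPKM or more and 8 at 10 RPKM or more, and the median was 12.0 RPKM. The highest was bgcn, the partner of bam in ending spermatogonial divisions, at 46.9 and 45.3 RPKM. The translational regulator mei-P26 measured 41.03 and 36.95 RPKM, the transcription factor gene chinmo 27.32 and 28.003 RPKM, and tut, which works with bam and bgcn, 15.2 and 17.1 RPKM. By contrast bam itself stood at 3.41 and 3.23 RPKM and the stem cell translational repressor nanos at 11.5 and 12.5 RPKM. The oocyte gene osk had 10 and 9 reads (0.139 and 0.135 RPKM).

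The piRNA pathway, which silences transposons in germ cells, had a median of 11.5 RPKM over 11 genes measured. The Tudor-domain gene papi was highest at 75.1 and 75.7 RPKM, followed by tud (25.1 and 24.6), the helicase gene armi (19.9 and 20.6) and krimp (14.9 and 15.8). The Argonaute genes aub and piwi measured 11.2 and 12.4 RPKM and 6.11 and 6.99 RPKM. All 11 stood at 1 RPKM or more in the mean, and 6 at 10 or more.

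The regulators that switch on the spermatocyte programme were present at moderate levels. These are the testis meiotic arrest complex (tMAC), testis TAFs and their partners, and 16 of 17 measured stood at 10 RPKM or more, with a median of 23.6 RPKM and 0 at 100 RPKM or more. The bromodomain gene tbrd-1 measured 83.9 and 82.8 RPKM, mip40 59.0 and 63.6 RPKM, the TAF12 variant rye (Taf12L in the current annotation) 55.2 and 58.3 RPKM, and the TAF8 variant sa 50.1 and 53.0 RPKM. The complex members aly and comr were lower, at 12.4 and 12.7 RPKM and 5.94 and 5.93 RPKM.

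Among 16 genes of the meiotic divisions the median was 26.6 RPKM, with a wide range. The RNA-binding protein gene boule (bol), needed for meiotic entry, measured 386 and 374 RPKM and was the only one at 100 RPKM or more in the mean. The kinase gene polo (100.1 and 93.8 RPKM), the cyclin-dependent kinase inhibitor gene rux (96.7 and 95.3) and the cohesion protector gene mei-S332 (85.0 and 80.1) followed. Of the Cdc25 phosphatase genes, the meiotic twe measured 65.6 and 60.8 RPKM, while the mitotic stg measured 0.914 and 0.733 RPKM.

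Genes known to be transcribed after meiosis, the comet and cup genes, were mostly higher, with 12 of 18 measured at 100 RPKM or more and a median of 157 RPKM. The highest was w-cup at 1356 and 1265 RPKM. The gene soti, an inhibitor of a ubiquitin ligase that controls caspases in spermatids, measured 389.7 and 337 RPKM, boly 344 and 327 RPKM and c-cup 262 and 271 RPKM. The lowest was s-cup at 2.58 and 2.52 RPKM. The genes cola and swif were listed with the same length and the same counts, 8876 reads in replicate 1 and 7405 in replicate 2. Their values cannot be told apart, and both genes enter the 12 at 100 RPKM or more and the list median.

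Spermatid products gave the highest lists. The 7 sperm-tail genes of the Mst(3)CGP family had a median of 2125 RPKM, and 7 of 7 were at 100 RPKM or more. Below the 4 named above stood Mst84Dd (1089 and 1128 RPKM), Mst98Ca (871 and 894) and Mst98Cb (541 and 541). The 7 sperm leucyl aminopeptidase genes had a median of 1437 RPKM and held 2.51% and 2.54% of gene reads, more than any other germline list. S-Lap3 measured 1450.1 and 1425 RPKM, S-Lap8 1407 and 1370.4, S-Lap2 1258 and 1237, and S-Lap5, the lowest, 214 and 212 RPKM.

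The 5 genes of the don juan and janus list had a median of 777 RPKM. Below ocn, the sperm protein gene don juan (dj) measured 1129 and 1112 RPKM, janB 762 and 792, the related don juan like (djl) 541 and 528, and janA 301 and 320.4 RPKM. Of 8 genes of sperm chromatin, 7 stood at 100 RPKM or more and the median was 343 RPKM. Mst33A measured 489 and 462 RPKM, the HMG-box gene tHMG2 442 and 446, the transition protein gene Tpl94D 450.0 and 429.7, and tHMG1 393 and 366 RPKM. The protamine genes ProtB and ProtA measured 290.0 and 321 RPKM and 202 and 212 RPKM. They are near-identical copies, so their ratio is uncertain.

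The axoneme list was lower than the lists of tail and chromatin proteins, with a median of 19.8 RPKM over 10 genes. Tektin-A and Tektin-C, of axonemal filaments, measured 199 and 195 RPKM and 159 and 159.6 RPKM, Gas8 47.9 and 46.4 RPKM, and the dynein heavy chain gene Dhc36C 45.6 and 42.4 RPKM. Another dynein heavy chain gene, Dhc93AB, had 29 and 12 reads (0.0856 and 0.0383 RPKM). The testis beta-tubulin gene betaTub85D, of the meiotic spindle and axoneme, measured 1492 and 1434 RPKM and ranked 38. Among 12 genes of mitochondrial derivatives and of individualization, the step that separates sperm, the median was 56.5 RPKM. Cyt-c-d, a cytochrome c needed for caspase activation there, measured 727 and 739 RPKM, soti is given above, the myosin VI gene jar measured 168 and 169 RPKM, and the mitofusin gene fzo 129 and 109 RPKM. The caspase gene Drice was the lowest at 3.65 and 4.32 RPKM.

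**Figure D2:**
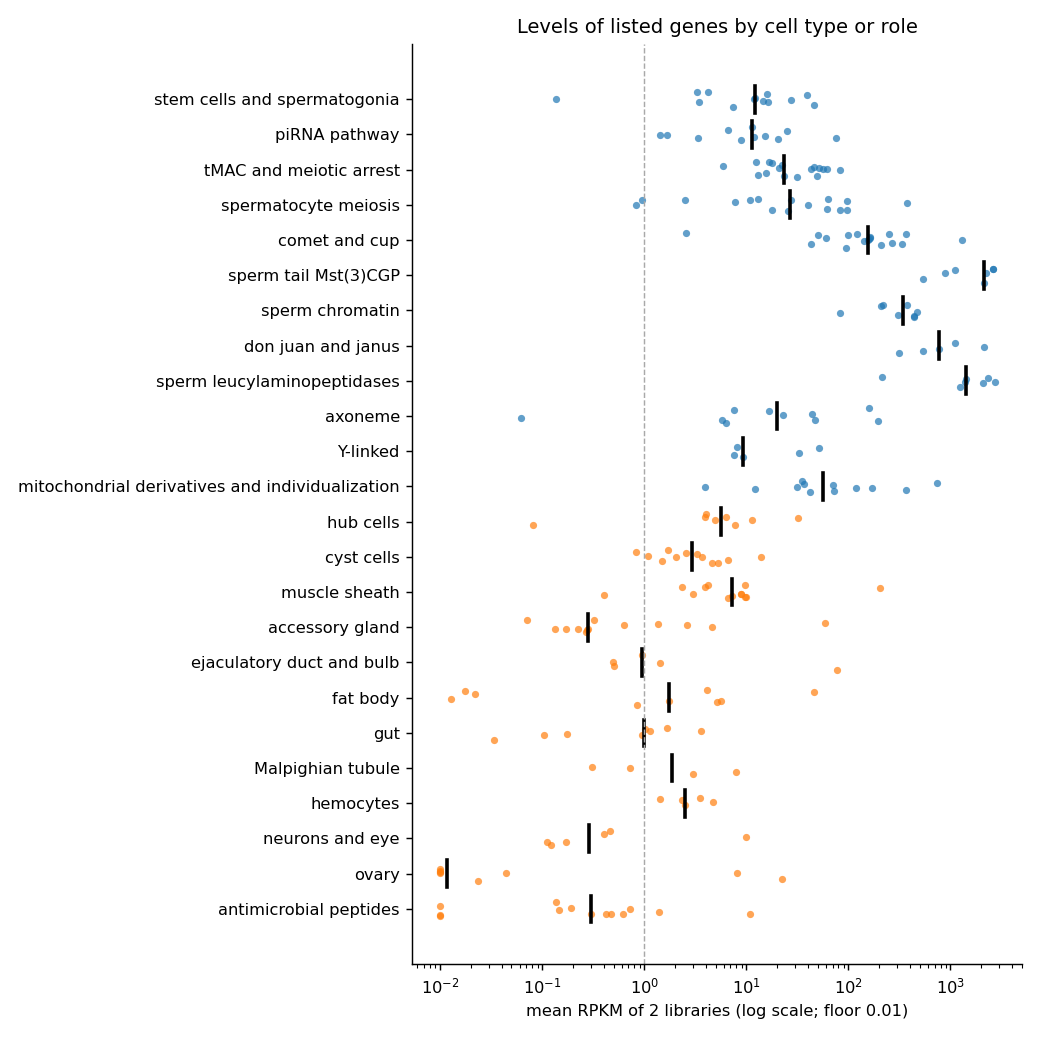
Mean RPKM of the 2 wildtype libraries on a log scale (horizontal axis) for the measured genes of 24 lists (vertical axis), with blue for germline lists and orange for somatic lists and other tissues. Each point is a gene, the black bar is the list median, the dashed line is 1 RPKM and values under 0.01 are drawn at 0.01. Medians of the germline lists run from 9.29 RPKM for Y-linked genes to 2125 RPKM for sperm-tail genes, and lists of other tissues lie mostly below 10 RPKM.

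Lists of somatic testis cells had medians below those of the germline lists. Against the median of all listed genes, 4.47 RPKM in replicate 1 and 4.66 RPKM in replicate 2, the hub and muscle sheath lists stood higher and the cyst cell list lower. The median of 8 hub genes was 5.63 RPKM, 7 of them stood at 1 RPKM or more, and 2 stood at 10 RPKM or more, the beta-catenin gene arm (30.8 and 33.5 RPKM) and Fas3 (11.5 and 11.4), which codes for an adhesion protein. The hub ligand gene upd1 measured 7.93 and 7.66 RPKM, dlp 6.04 and 6.55, and the ligand gene upd3 had 8 reads and 1 read. The median of 12 cyst cell genes was 2.91 RPKM. The transcriptional regulator gene eya measured 13.6 and 14.1 RPKM, piwi, also in the piRNA list, is given above, and sog and so measured 5.26 and 5.38 RPKM and 4.29 and 4.89 RPKM. The cyst stem cell regulators zfh1 and tj stood at 3.13 and 3.42 RPKM and 1.48 and 1.94 RPKM.

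The muscle sheath list had a median of 7.26 RPKM over 13 genes, and 12 stood at 1 RPKM or more. The actin gene Act87E was far above the others at 204 and 205 RPKM. It was followed by Tm1 (9.25 and 10.5 RPKM), Mlc2 (9.62 and 9.97) and Mlc1 (10.7 and 8.64), the genes of a tropomyosin and the muscle myosin light chains. Actins are close in sequence, so the split of reads between Act87E and other actin genes is uncertain.

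Genes of neighbouring organs had list medians below that of all listed genes, and in each of 3 lists 1 gene stood at 10 RPKM or more. Of 13 accessory gland genes, 4 stood at 1 RPKM or more, and the median was 0.280 RPKM. The exception was Acp95EF at 58.0 and 58.8 RPKM. It overlaps another listed gene in the reference annotation, so its value is uncertain. The seminal protein genes Acp36DE, Acp26Aa and Acp26Ab measured 4.84 and 4.41, 2.29 and 2.96, and 1.19 and 1.54 RPKM, and the sex peptide gene SP had 3 reads and 0 reads. Of 5 genes of the ejaculatory duct and bulb, EbpIII measured 76.3 and 79.5 RPKM and the others between 0.493 and 1.44 RPKM in the mean, with a list median of 0.962 RPKM. Of 9 fat body genes 5 stood at 1 RPKM or more, and the median was 1.73 RPKM. NLaz, a lipocalin, measured 40.2 and 51.1 RPKM, fon 5.68 and 5.64, Apoltp 4.79 and 3.36, and Lsp2 2.27 and 1.19 RPKM. The yolk protein genes were unequal, with Yp3 at 4.71 and 5.66 RPKM (177 and 197 reads), while Yp1 and Yp2 had 2 reads and 1 read over both libraries.

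Of 8 ovary genes, the vitelline membrane and chorion genes Vm26Aa, Vm32E, Cp36 and Cp16 were listed at 0 in both libraries. Vm34Ca and Cp38 had 1 read each. The chorion genes Cp15 (20.3 and 24.9 RPKM) and Cp18 (7.91 and 8.37 RPKM) stood apart from them. Among 6 genes of neurons and the eye 1 stood at 1 RPKM or more, nSyb, a synaptic vesicle protein gene, at 9.26 and 10.7 RPKM. Of 13 antimicrobial peptide genes, AttC measured 10.3 and 11.2 RPKM, CecA1 1.58 and 1.22 RPKM, and CecA2, CecB and AttD were listed at 0.

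Gut and blood cell genes stood below 10 RPKM in both libraries, and their summed levels were higher in replicate 1. The summed level of 8 gut genes was 11.1 RPKM in replicate 1 and 6.29 RPKM in replicate 2, and that of 5 hemocyte genes 18.9 and 10.3 RPKM. In the gut list the amylase genes Amy-p (4.11 and 3.12 RPKM) and Amy-d (2.02 and 1.35) were highest in the mean. The widest differences there among genes higher in replicate 1 were those of the trypsin gene alphaTry (2.07 and 0.199 RPKM, 10.4-fold) and the protease gene Jon65Aiii (1.74 and 0.297 RPKM, 5.87-fold), which rest on 45 and 4 reads and on 38 and 6 reads. Higher in replicate 2 were Mal-A1 (0.0437 and 0.307 RPKM, 7.02-fold, 2 and 13 reads), Jon25Bi (0 and 2 reads) and betaTry (2 and 2 reads). In the hemocyte list the matrix protein gene Ppn measured 6.39 and 3.15 RPKM, the collagen gene Col4a1 4.69 and 2.36, and Hml 3.22 and 1.78 RPKM. The Malpighian tubule list ran the other way, with 10.7 and 13.5 RPKM over 4 genes, led by the chloride channel gene Best2 at 7.45 and 8.58 RPKM and salt at 2.66 and 3.40 RPKM. Whether these tissues contribute to any other difference between the libraries was not tested.

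Genes used by every cell spanned a wide range. The alpha-tubulin gene alphaTub84B measured 1275 and 1234 RPKM, the chaperone gene Hsp83 791 and 717, the polyubiquitin gene Ubi-p63E 474 and 451, and the actin gene Act42A 354 and 345 RPKM. Most Ubi-p63E reads lay on exon junctions, as given below, so its level is uncertain. The TATA-binding protein gene Tbp measured 3.01 and 3.19 RPKM. The 80 cytoplasmic ribosomal protein genes had a median of 134.7 RPKM in replicate 1 and 155 RPKM in replicate 2, and 63 of them stood at 100 RPKM or more. RpL41 (569.6 and 689 RPKM) and RpLP2 (393 and 425) were highest, and RpS14b, with near-identical copy RpS14a, was lowest at 8.57 and 8.24 RPKM. The 68 mitochondrial ribosomal protein genes had a median of 17.1 RPKM, with mRpL51 (65.0 and 56.7 RPKM) and mRpS17 (60.0 and 61.3) highest.

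Several families of repeated genes, and separately the genes of the mitochondrial genome, were listed at or near 0, among them genes that every cell uses. Of 111 replication-dependent histone genes 110 had no read, as did 98 of 99 ribosomal RNA genes, 269 of 292 transfer RNA genes, 11 of 12 Stellate genes and 4 of 6 Hsp70 genes. Of 36 mitochondrially encoded genes 26 had no read, and the highest, mt:ND1, measured 1.53 and 2.20 RPKM. For the repeated families, the counting of reads with several matches in the genome is not given in the sources. The cause of the zeros, also of the mitochondrial ones, was not tested, and they are not read as levels of expression.

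The 9 measured subunits of the CCR4-NOT complex, a deadenylase that removes poly(A) tails, had a median of 51.7 RPKM. The deadenylase gene twin measured 311 and 298 RPKM, the scaffold gene Not1 114 and 103, the deadenylase gene Pop2 114 and 102, and Rcd-1, the gene named Caf40 in the labels, 98.2 and 95.1 RPKM. The lowest was Rga at 11.1 and 11.2 RPKM.

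Duplicated genes were compared within wildtype in 64 pairs of a copy or variant, mostly one known from testis, with a related gene. Of these, 49 pairs had both genes measured, and 15 were not matched and are not analysed here, among them betaTub85D with betaTub56D. The first gene was higher in both libraries in 40 pairs and the second in 8, and in 1 pair (COX6AL2 at 234 and 244 RPKM, COX6AL at 230.2 and 251) the order differed between libraries. The median ratio was 2.74-fold (log2 ratio 1.45). For 7 of the pairs the first gene was not counted as a testis copy of a general gene. These first genes are alphaTub84D, Hsp60C, Cdlc2, COX6AL2, Ant2, His3.3A and Mst35Bb. Mst35Bb and its partner Mst35Ba are the protamine genes ProtB and ProtA, both of sperm. In the other 42 pairs, a choice made after the values were seen, the first gene was higher in 35 and lower in 7 (median log2 ratio 1.52). Of the 49 first genes 30 stood at 100 RPKM or more, and of the 44 distinct second genes 10 did. The pairs were collected because a testis role was known for many of them, so this balance describes the collection and not gene duplicates at large.

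The 8 pairs with the widest ratios ran from 31.2-fold to 9.86-fold, each with the first gene higher. CG7024, an E1 alpha subunit of pyruvate dehydrogenase, measured 158 and 163 RPKM against 5.32 and 5.01 RPKM for Pdha, 31.2-fold (log2 ratio 4.96 ± 0.09, SD, n = 2). The phosphoglycerate mutase gene Pglym87 measured 420.0 and 418 RPKM against 12.7 and 14.8 for Pglym78, 30.5-fold (log2 4.93 ± 0.16). The succinyl-CoA ligase gene Scsalpha2 measured 385 and 389 RPKM against 22.1 and 22.5 for Scsalpha1, 17.4-fold. The glutamate dehydrogenase gene bb8 measured 436 and 429.9 RPKM against 25.5 and 27.9 for Gdh, 16.2-fold. Next was the TAF12 variant rye with 55.2 and 58.3 RPKM against 4.02 and 4.34 for Taf12, 13.6-fold, and then the aconitase gene mAcon2 with 218 and 205 against 17.6 and 19.9 for mAcon1, 11.3-fold. For subunits of cytochrome c oxidase, COX5BL stood at 327 and 312 RPKM against 29.6 and 34.8 for COX5B (9.92-fold) and COX4L at 584 and 589 against 60.0 and 58.9 for COX4 (9.86-fold). In each of these 8 pairs both values of the first gene exceeded both values of the second.

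Of 5 pairs of TATA-binding protein associated factors, 4 had the testis form higher, and the median ratio was 3.01-fold, against 2.74-fold over all 49 pairs. After rye came can over Taf5 (21.7 and 23.0 against 2.39 and 3.03 RPKM, 8.25-fold), while nht stood slightly below Taf4 (29.6 and 32.6 against 33.6 and 35.0 RPKM). In 10 of 10 proteasome pairs the testis subunit was higher, with a median ratio of 2.20-fold (log2 1.14). Prosbeta5R1 measured 164 and 161 RPKM against 39.3 and 38.6 for Prosbeta5 (4.17-fold), whereas Prosbeta2R2 measured 72.0 and 66.2 against 48.6 and 54.7 for Prosbeta2 (1.34-fold). Several of these pairs share their second gene and are not independent.

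In 8 pairs the second gene was higher in both libraries. Among ribosomal proteins the pairs divided evenly, with RpS28a, RpS15Ab and RpS5b below their partners and RpL22-like, RpL10Aa and RpL37b above them. RpL37b was close to its partner (102 and 116 against 81.7 and 93.2 RPKM). ATPsynbetaL, a copy of the ATP synthase beta subunit gene, stood at 55.7 and 53.6 RPKM against 78.4 and 85.1 for ATPsynbeta (log2 ratio -0.58). Arp53D, an actin-related gene of testis, stood at 206 and 185 RPKM against 248 and 265 for Act5C. The retrotransposed Rcd-1r, named Zeus in the labels, stood at 22.2 and 26.4 RPKM against 98.2 and 95.1 for Rcd-1, 3.97-fold lower (log2 ratio -1.99 ± 0.21, SD, n = 2). The widest of these was alphaTub84D at 184 and 176 RPKM against alphaTub84B, 6.96-fold lower, a pair of general alpha-tubulins. The counting of reads with several matches in the genome is not given in the sources, so ratios between copies close in sequence are uncertain.

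**Figure D3:**
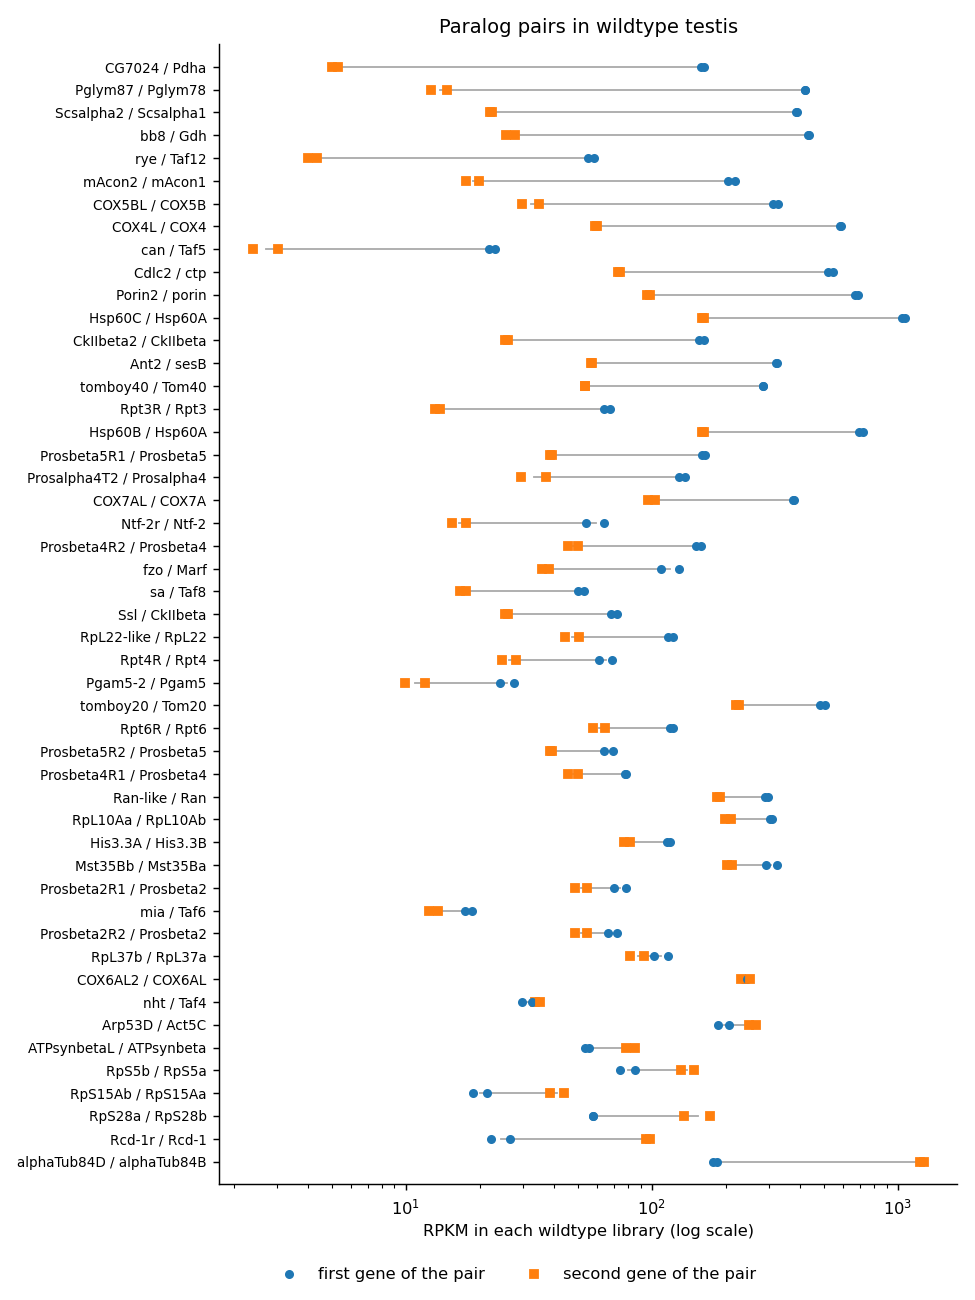
RPKM on a log scale (horizontal axis) in each wildtype library for the 49 pairs measured (vertical axis, ordered by ratio), with circles for the first gene of each pair, squares for the second and a grey line between their means. In 40 pairs the first gene is higher in both libraries, from CG7024 with Pdha at 31.2-fold down to RpL37b with RpL37a.

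The pairs also differed in gene structure and place. In 18 pairs the first gene had no annotated intron while the second had, and the first was higher in 13 of these, with a median log2 ratio of 0.96. In 29 pairs both had introns, and the first was higher in 26, with a median of 1.69. The second gene lay on the X chromosome in 25 of 49 pairs and the first in 3. In 23 pairs the second gene was X-linked and the first autosomal, and the first was higher in 18 of these. Pairs that share a second gene enter these counts more than 1 time.

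Genes of the X chromosome reached high levels less often than those of the large autosome arms. The X held 13.1% of listed genes and 8.09% and 8.13% of gene reads. At least 100 RPKM was reached by 110 of 1992 X-linked genes (5.52%), against 11.8% on arm 2L, 10.2% on 2R, 10.6% on 3L and 11.2% on 3R. At 1 RPKM the shares were alike, 71.6% on the X and 69.5%, 66.1%, 68.3% and 69.7% on those arms. Of the 26 genes with a symbol among the 30 highest 0 were X-linked, and of the 91 among the 100 highest 4 were. These shares are a description of genes that are not independent of each other, and the difference between the X and the autosomes was not tested. Genes without a current symbol, 15.3% of listed genes and 14.3% of reads, have no arm here.

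The highest X-linked gene was a non-coding one, lncRNA:CR32652, at 1147 and 1155 RPKM. On the other arms the highest were CG31740 on 2L, CG12699 on 2R, CG18628 on 3L and Mst87F on 3R, all given above, and the ribosomal protein gene RpS3A on chromosome 4 (241 and 268 RPKM). Of 18 genes listed on the Y chromosome 8 stood at 1 RPKM or more. The aldehyde reductase gene ARY was highest at 49.3 and 54.0 RPKM. The protein phosphatase gene Pp1-Y2 measured 33.2 and 32.3 RPKM, Ppr-Y 9.03 and 9.56, ORY 8.18 and 8.03, and the dynein heavy chain gene kl-2 7.73 and 7.44 RPKM. The large Y genes kl-3 and kl-5 were not matched to a listed identifier and are not analysed here.

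**Figure D4:**
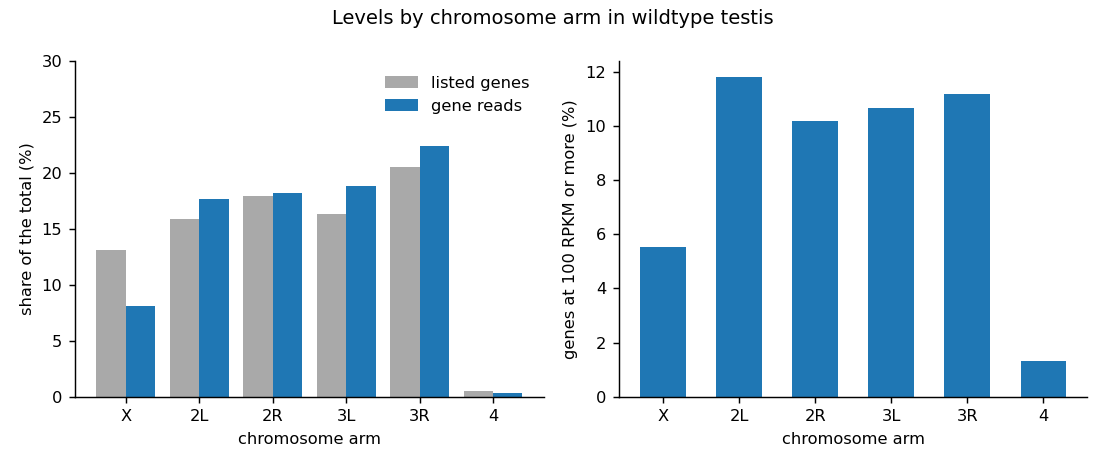
Left, share of listed genes (grey) and of gene reads (blue) in percent by chromosome arm, and right, share of the genes of each arm at 100 RPKM or more. The X holds 13.1% of genes and 8.11% of reads, and 5.52% of its genes reach 100 RPKM against 10.2% to 11.8% on the large autosome arms.

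Reads across exon junctions made up 2.06% and 2.07% of gene reads, but their share per gene differed with the strand a gene lies on. Among protein-coding genes with an annotated intron and at least 100 reads over both libraries, 3389 of 3627 on the plus strand had a junction read (93.4%), and 1015 of 3803 on the minus strand (26.7%). The median junction share of a gene's reads was 3.65% on the plus strand and 0 on the minus strand. Among genes with 1 intron, 82.5% on the plus and 4.81% on the minus strand had a junction read, and among genes with 10 or more introns 98.6% and 64.7%. Minus-strand genes held 43.8% of gene reads and 18.7% of junction reads, and plus-strand genes 41.9% and 65.4%. Of 1108 protein-coding genes without an annotated intron, 3 had a junction read. The cause of the strand difference was not tested. A junction share of 0 on the minus strand is therefore not read as a lack of splicing, and whether junction reads are missing from the levels of minus-strand genes was not tested.

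**Figure D5:**
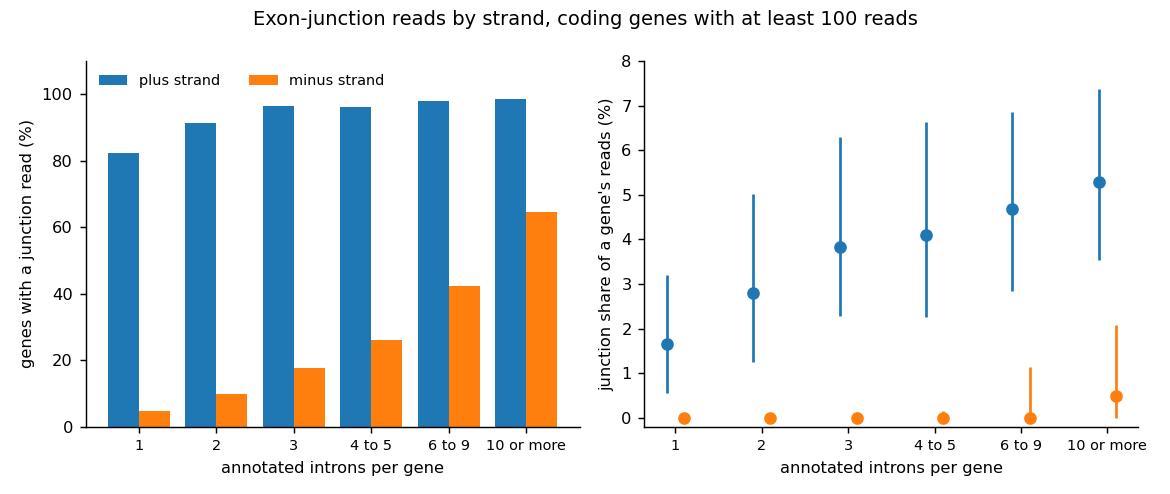
Protein-coding genes with an intron and at least 100 reads, by number of annotated introns (horizontal axes), for the plus strand (blue) and the minus strand (orange). Left, the percentage of genes with a junction read, and right, the median (point) and quartiles (line) of the junction share of a gene's reads in percent. The plus strand lies above the minus strand in each class, from 82.5% against 4.81% at 1 intron to 98.6% against 64.7% at 10 or more.

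Several of the genes described above show this difference. On the minus strand, CG12699 had 74179 and 68146 reads and betaTub85D 70054 and 62399, with no junction read although each has 1 annotated intron. CG2127, also with 1 intron, had 84611 and 78983 reads and none on a junction. The same held for exu on the minus strand and, as an exception to the pattern, for CG9130 on the plus strand, each with 4 introns. On the plus strand, Mst84Da had 4016 junction reads, 10.9% of its reads, CG18628 8.15% and S-Lap1 2.45%. Minus-strand genes with a junction share above 0 included CG31226 (5.16%), CG9016 (6.39%) and bol (4.71%).

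The median junction share over all 9800 genes with at least 100 reads was 0.339%, and it was 0.188% without replicate 1 and 0.185% without replicate 2. It pools genes of both strands, which separately gave 2.99% on the plus strand and 0 on the minus strand. At the other end, 36 of these 9800 genes had at least 50% of their reads on junctions and 15 had 100%. The 15 included CG33667 (1006 and 898 reads), CG33664 (690 and 659), CG32820 (535 and 452) and Sdic2 (399 and 379), together with FBgn0085675 and FBgn0026781. Among genes under 100%, the dynein intermediate chain gene sw stood at 92.4%, betaTub97EF at 89.2% and Ubi-p63E, with 36759 junction reads, at 53.1%. Sdic2 belongs to tandem copies derived in part from sw, and reads of such copies can be counted to more than 1 gene or to none, so these shares are uncertain.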

How the data were processed

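The 2 wildtype D. melanogaster testis tables were used, and the tables of the other 6 samples were not. The deposited tables hold, per the file headers, a count of reads for each gene, its genome and junction parts, the exon length, library totals and RPKM. The parts summed to the count for every gene, and the deposited RPKM equalled reads over length and mapped reads (25097989 and 23250412). Bowtie and the dm3 build are named in the submitters' processing notes. Not given in the sources used here are the version, the annotation and the counting of reads with several matches. Of 15178 identifiers, 12862 (84.7%) received a symbol from BDGP6 gene tables, a different build. That build served for names, gene type (such as protein-coding), strand, introns, exon overlaps, arms and gene order only.

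Ranks, list medians, ratios of mean RPKM (SD over the log2 ratio of each library) and junction shares were computed in Python 3.11.15 with pandas 2.3.3, with no test and no pseudocount. Simulated counts were used to check the chi-square statistic between libraries and a log2 ratio of counts. The ranks, list medians, pair ratios and junction shares were not checked on simulated counts. Genes were named by rule: the 30 highest, up to 4 of the highest of each list and members at 0, the 8 widest and 4 narrowest pairs, the 6 widest library differences, the junction extremes and the highest gene of each arm. Further genes named for their role or place were chosen with their values known. Genes, lists and pairs were chosen with earlier results of these data known.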

Additional observations from a re-analysis of the deposited data

How the results depend on the processing

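The count of genes at 1 RPKM or more (10064) stayed between 9101 and 10968 under the thresholds of 2 and 0.5 RPKM, with 1 RPKM required in each library, in TPM and with genome reads only. The share of reads in the 100 most abundant genes, 22.3% in the mean, was 26.9% as a share of summed RPKM and 22.5% from genome reads only, and 22.3% to 22.4% with either library left out. The median junction share of 0.339% depended on the genes admitted. It was 0 at a minimum of 20 reads or with no minimum beyond 1 read, 0.519% at 500 reads, and 3.35% among genes with a junction read. It lay between 0.185% and 0.188% with a library left out, since single libraries hold more genes without a junction read. Added after seeing the data, plus-strand genes gave 2.99% and minus-strand genes 0. The count of 40 of 49 pairs with the first gene higher was 40 or 41 with a library left out, and 40 with genome reads only. Added after seeing the data, the 42 pairs whose first gene is known as a testis copy gave 35. Of 49 pair ratios 0 changed sign in a pair with the same direction in both libraries, and the largest shift was 0.63 on the log2 scale, with genome reads only. Genome reads only moved 20 of 49 ratios by more than the SD between libraries, a pseudocount of 1 RPKM 15 and one of 0.1 RPKM 5. With only members at 1 RPKM or more, 22 list medians moved by at least the SD between libraries and 16 did not. That of the accessory gland went from 0.280 to 3.63 RPKM, and that of the ejaculatory duct and bulb from 0.962 to 39.7 RPKM. The gut median was 1.40 RPKM in replicate 1 and 0.302 RPKM in replicate 2. No paired analysis was possible because only 1 group was described. Depth limits the lowest genes, where 3 reads on 1 kb are worth 0.120 and 0.129 RPKM, and repeated genes cannot be read at any depth. Genes are not replicates, and 2 libraries give little measure of spread.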

Other observations

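Genes named for chemical senses were measured in testis, most of them below 1 RPKM and a few well above it. Of all listed genes 66.3% stood at 1 RPKM or more. Of 60 odorant receptor genes 8 stood at 1 RPKM or more, and the highest was Or23a at 28.5 and 28.4 RPKM. Of 57 gustatory receptor genes 13 did, and Gr93d was highest at 10.7 and 8.93 RPKM. Of 50 ionotropic receptor genes 10 did, and Ir75d was highest at 68.8 and 68.7 RPKM. Or23a and Ir75d, and also Obp44a and Jhbp5 below, overlap other genes in the reference annotation. The counting of reads in an overlap is not given in the sources, so these values are uncertain. Among 51 odorant-binding protein genes 19 stood at 1 RPKM or more, and 2 at 100 or more, Obp44a at 1734 and 1801 RPKM and Obp99a at 486 and 536 RPKM. In the juvenile hormone binding family of 13 genes, Jhbp5 measured 1729 and 2321 RPKM and the next, Jhbp14, 10.9 and 9.31 RPKM. Of 4 metallothionein genes, which code for metal-binding proteins, MtnA measured 1142 and 1539.8 RPKM and MtnC 12.4 and 7.82 RPKM.

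Among non-coding genes the highest were lncRNA:CR9284 (1659 and 1479 RPKM), lncRNA:CR32652 (1147 and 1155) and lncRNA:CR32658 (1114 and 1083), of which the last 2 are X-linked. In all, 8 of 57 genes named as lncRNA stood at 100 RPKM or more, where 9.28% of all listed genes did.

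Among the 7377 genes with a mean of at least 5 RPKM, 4 differed at least 2-fold between the wildtype libraries. Mur18B, named for a mucin-related protein, had 7 reads in replicate 1 and 699 in replicate 2 (0.173 and 18.7 RPKM). CG14292 had 6 and 260 reads (0.369 and 17.3 RPKM). CG11892 measured 3.24 and 7.19 RPKM, and the small non-coding RNA gene FBgn0065088 3.62 and 7.82. The latter rests on 13 and 26 reads and overlaps another listed gene in the reference annotation. The next widest were under 2-fold, CG5612 at 9.21 and 17.3 RPKM (1.88-fold) and the cuticle protein gene Cpr66Cb at 11.8 and 6.38 RPKM (1.85-fold). Among the 100 highest genes 3 differed by over 1.2-fold, MtnA (1.35-fold), Jhbp5 (1.34-fold) and CG18628 (1.24-fold), in each case with replicate 2 higher. The cause of these differences was not tested.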
